A study of Mus musculus with 120 samples.

Results

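The 31 genes described here encode the vacuolar proton pump (V-ATPase) of the mouse, and they were taken from 48371 gene symbols measured in single cells of the endolymphatic sac. They were listed by name as parts of the pump, with no measured value in the rule: 23 encode pump subunits and their isoforms, and 8 encode accessory proteins or assembly factors. All 31 had an entry in the table. The sac is a blind extension of the inner ear that takes part in the balance of its fluid. Cells came from the sac at E14.5, a day of mid-gestation, 62 of them from Sox9Y440X/+ mice and 58 from wild-type mice, and each was made into a library by Smart-seq2, which amplifies whole transcripts of 1 cell at a time. Sox9Y440X/+ mice carry 1 intact copy of Sox9 and 1 copy with a stop codon in place of residue 440, per the name of the allele. The cells cannot be assigned to animals from the labels, so each genotype is 1 sample. No value below has a replicate error, nothing was tested, and differences describe the cells measured. Gene-level values do not separate the alleles of Sox9, so they give no check of the genotype labels.

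The pump has a V1 part on the cytoplasmic side, which splits ATP, and a V0 part in the membrane, which carries protons. Widely expressed subunits build the pumps that acidify lysosomes and other compartments in nearly every cell. Acid-secreting epithelial cells such as kidney intercalated cells and inner ear ionocytes also make their own isoforms of several subunits and place pumps at the cell surface, and FOXI1, a forkhead transcription factor, is needed for these cells to form. In humans, loss of the a4 or the B1 isoform, encoded by ATP6V0A4 and ATP6V1B1, causes renal tubular acidosis with hearing loss.

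Cells with at least 1000 genes per their label were compared, 58 of Sox9Y440X/+ and 57 of wild type. They were sorted by markers of epithelium and connective tissue, and epithelium-like cells were divided by Foxi1 at FPKM 1 (a level per transcript length and per sequenced total of the cell), the limit of detection used throughout. Foxi1-positive cells numbered 7 in Sox9Y440X/+ and 22 in wild type, connective-like cells 19 and 1, and Foxi1-negative epithelial cells 30 and 34. The remaining 2 cells, both Sox9Y440X/+, were left unclassified. Foxi1 lay between 3.37 and 784.91 FPKM in Foxi1-positive Sox9Y440X/+ cells, with a median of 721.59, and between 7.19 and 1726.5 FPKM in wild-type ones, with a median of 269.14. The highest value below the limit was 0.423 FPKM. At least 3 of 8 ionocyte markers were detected in 5 of 7 and 13 of 22 Foxi1-positive cells and in no Foxi1-negative cell of either genotype. Foxi1 is itself 1 of the 8, so this count is not independent of the division. The median number of genes per cell, the measure of depth at hand, was 4520 and 4491.5 in Foxi1-positive cells of Sox9Y440X/+ and wild type, 3654 in Sox9Y440X/+ connective-like cells, and 4380 and 3046 in Foxi1-negative cells. No cell had 3 or more detected markers of macrophages and osteoclasts, melanocytes, neurons, endothelium or erythroid cells. Of the 10 macrophage and osteoclast markers, Acp5 was detected in 3 of 7 and 11 of 22 Foxi1-positive and 18 of 30 and 19 of 34 Foxi1-negative cells, and Csf1r in 2, 3, 1 and 6 of them. Cd68 was detected in 3 Foxi1-negative Sox9Y440X/+ cells, and in connective-like Sox9Y440X/+ cells Cd68, Csf1r and Ctsk were detected in 3, 2 and 6 of 19. The leukocyte marker Ptprc, Tyrobp and the C1q genes of macrophages were not detected in any class. The summed level of the list reached 130.9 and 222.6 FPKM in Foxi1-positive, 176 FPKM in Sox9Y440X/+ connective-like, and 399.6 and 219.8 FPKM in Foxi1-negative cells.

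Transcripts of the acid-secreting isoforms were found in Foxi1-positive cells and were nearly absent elsewhere. The group holds Atp6v0a4 (a4, the proton-conducting membrane subunit), Atp6v0d2 (d2, which couples the stalk to the membrane ring), Atp6v1b1 (B1, part of the ATP-splitting head), Atp6v1c2 (C2) and Atp6v1g3 (G3), both stalk subunits. RefSeq promoter windows of build GRCm38.p6 were at hand for 4 of these 5 genes. They are shown because the transcripts share the Foxi1-positive class. Each line is the coding strand, 5′ to 3′, over the 250 bases before the annotated start, with capitals for the forkhead core TGTTTA on either strand.
Atp6v1b1, chr6:83742767-83743016, plus strand: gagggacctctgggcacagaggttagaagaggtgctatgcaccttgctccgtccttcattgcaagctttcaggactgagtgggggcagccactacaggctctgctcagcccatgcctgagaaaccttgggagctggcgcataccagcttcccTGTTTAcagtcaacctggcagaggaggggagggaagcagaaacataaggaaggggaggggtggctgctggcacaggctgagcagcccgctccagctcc
Atp6v0a4, chr6:38124587-38124836, minus strand: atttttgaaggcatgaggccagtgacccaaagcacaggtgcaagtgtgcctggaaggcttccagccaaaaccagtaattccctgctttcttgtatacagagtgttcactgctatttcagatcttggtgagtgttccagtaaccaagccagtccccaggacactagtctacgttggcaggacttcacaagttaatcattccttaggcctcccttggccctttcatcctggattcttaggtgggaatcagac
Atp6v1c2, chr12:17324731-17324980, minus strand: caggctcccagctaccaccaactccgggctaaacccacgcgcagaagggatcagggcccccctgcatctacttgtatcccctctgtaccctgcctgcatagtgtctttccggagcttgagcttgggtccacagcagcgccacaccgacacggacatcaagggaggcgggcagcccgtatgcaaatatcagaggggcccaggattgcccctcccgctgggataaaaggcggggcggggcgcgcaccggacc
Atp6v1g3, chr1:138273488-138273737, plus strand: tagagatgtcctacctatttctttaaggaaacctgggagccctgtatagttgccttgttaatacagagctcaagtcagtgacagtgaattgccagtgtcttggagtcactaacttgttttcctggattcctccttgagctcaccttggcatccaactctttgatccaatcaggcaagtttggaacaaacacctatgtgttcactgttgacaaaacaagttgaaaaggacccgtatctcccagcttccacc
The core was present in the Atp6v1b1 window, 98 bases before the start, and these letters were not in the other 3 windows. It was present in 12.03% of all 32851 windows of the same length. Among the 23 members with a window, which had 29 windows in all, Atp6v1b1 was the 1 that held it. These are letter matches and not measured binding. Atp6v0d2 lies on the minus strand at chr4:19876841-19922605 (GRCm38) and is named without a window. In the GENCODE annotation, exons of Atp6v0a4 overlap those of Tmem213 on the other strand and of D630045J12Rik on the same strand, and exons of Atp6v1c2 overlap those of Pdia6 on the other strand. Reads from the shared stretches cannot be told apart in these values. Exons of the other 3 isoforms overlap no annotated gene.

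Atp6v1c2 had the highest mean of the group, at 483 FPKM in Foxi1-positive Sox9Y440X/+ and 346 FPKM in wild-type cells. In Foxi1-positive Sox9Y440X/+ cells it ranged from 0 to 1666.2 FPKM with a median of 308.96, and in Foxi1-positive wild-type cells from 0 to 1436.8 FPKM with a median of 7.78. It was detected in 5 of 7 Sox9Y440X/+ and 11 of 22 wild-type Foxi1-positive cells and was listed at 0 in all 64 Foxi1-negative and all 20 connective-like cells. Taking 3 cells as the limit that a count of 0 allows, 0 of 30 Foxi1-negative Sox9Y440X/+ cells allows a share of up to 10% and 0 of 34 wild-type cells up to 8.82%. The exact Clopper-Pearson 95% intervals reach 11.6% and 10.3%. The mean of log2(FPKM + 1) was higher in Foxi1-positive than in Foxi1-negative cells by 6.38 in Sox9Y440X/+ and by 4.46 in wild type. This scale, with a pseudocount of 1, is the one used for every difference below.

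Atp6v0d2 followed the same division. It ranged from 0 to 412.61 FPKM (median 114.72) in Foxi1-positive Sox9Y440X/+ cells and from 0 to 676.8 FPKM (median 0) in wild-type ones. It was detected in 5 of 7 and 10 of 22 of them and was listed at 0 in every Foxi1-negative and connective-like cell. Atp6v1g3 was detected in 1 of 7 Sox9Y440X/+ Foxi1-positive cells, at 27.97 FPKM, and in 10 of 22 wild-type ones, at up to 210.55 FPKM. It too was at 0 in all cells of the other classes.

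The 2 isoforms tied to human deafness were the ones with a few positive cells outside the Foxi1-positive class. Atp6v0a4 reached 102.46 FPKM in Foxi1-positive Sox9Y440X/+ cells, with a median of 1.91, and 921.51 FPKM in wild-type ones, with a median of 18.67. It was detected in 4 of 7 and 11 of 22 Foxi1-positive cells, against 0 of 30 and 1 of 34 Foxi1-negative cells. Atp6v1b1 reached 131.56 FPKM in Foxi1-positive Sox9Y440X/+ cells, with a median of 0.427, and 384.78 FPKM in wild-type ones, with a median of 3.83. It was detected in 2 of 7 and 13 of 22 Foxi1-positive cells, against 1 of 30 and 2 of 34 Foxi1-negative cells. The exceptions were 3 cells in which Foxi1 was listed at 0. A Sox9Y440X/+ cell had Atp6v1b1 at 9.56 FPKM, a wild-type cell had it at 18.44 FPKM, and a second wild-type cell had Atp6v0a4 at 45.63 and Atp6v1b1 at 30.41 FPKM.

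The differences between Foxi1-positive and Foxi1-negative cells were 2.89 in Sox9Y440X/+ and 3.13 in wild type for Atp6v0a4, and 5.29 and 3.67 for Atp6v0d2. They were 2.01 and 2.73 for Atp6v1b1, and 0.69 and 2.87 for Atp6v1g3. A gene was counted as higher or lower when the difference reached 1 log2 unit and at least 25% of the cells in 1 of the classes had the gene at FPKM 1 or more. By that rule 4 of the 5 isoforms were higher in Sox9Y440X/+, where 26.5% of all 7664 genes considered were higher and 10.5% lower. All 5 were higher in wild type, where 25.4% of all 5868 genes considered were higher and 3.68% lower. The median difference of the 5 was 2.89 in Sox9Y440X/+ and 3.13 in wild type, beside 0.36 and 0.48 for all genes considered. Here and below, the median of a list covers all its genes, while the genes considered are those past the detection filter. Because the isoforms were at or near 0 in Foxi1-negative cells, the 4 and 5 that passed the detection filter did so through the Foxi1-positive class.

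**Figure D1:**
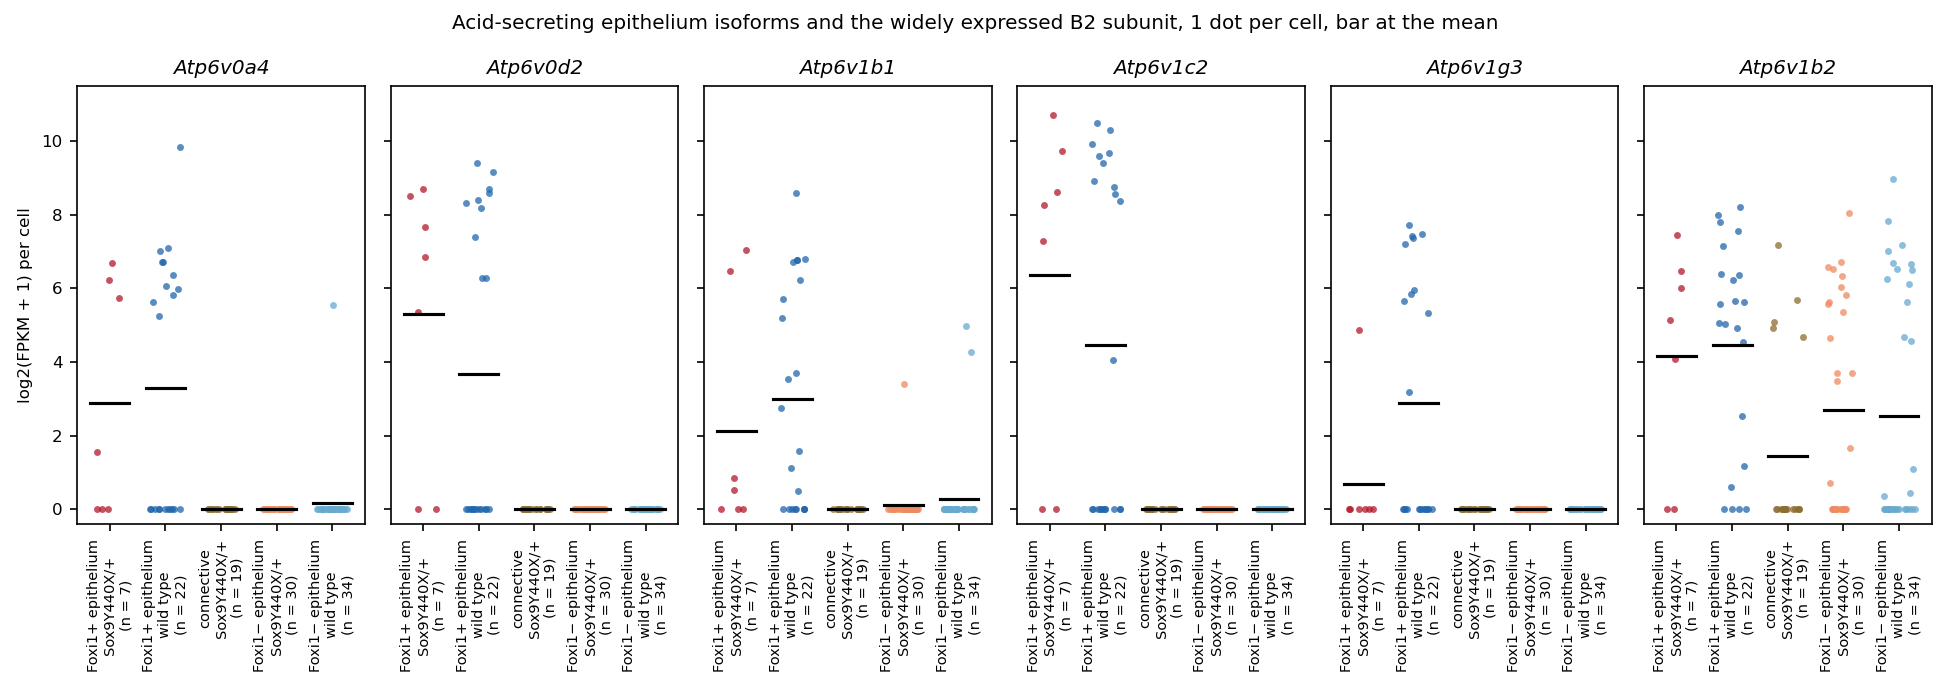
Level of the 5 acid-secreting isoforms and of the widely expressed Atp6v1b2 in each cell, as log2(FPKM + 1), by cell class and genotype. Each dot is a cell and each bar a mean over cells. The isoforms lie at 0 in nearly all connective-like and Foxi1-negative cells, whereas Atp6v1b2 is found in every class.

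Foxi1-positive cells were not alike. At least 1 acid-secreting isoform was detected in 5 of 7 Sox9Y440X/+ cells (71.4%, exact Clopper-Pearson 95% interval 29.04% to 96.3%) and in 14 of 22 wild-type cells (63.6%, 40.7% to 82.8%). In Foxi1-negative cells the counts were 1 of 30 (3.33%, 0.0844% to 17.2%) and 2 of 34 (5.88%, 0.720% to 19.7%). These intervals cover counting error alone and not differences between animals. All 5 isoforms were found together in 1 Sox9Y440X/+ and 8 wild-type cells.

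The isoforms overlapped in cells to different degrees. In Sox9Y440X/+, Atp6v0d2 and Atp6v1c2 were detected in the same 5 cells, of which 2 had Atp6v1b1 and 1 had Atp6v1g3. In wild type, Atp6v0d2 and Atp6v1g3 were detected in the same 10 cells, and all 10 also had Atp6v1b1. Atp6v0a4 and Atp6v0d2 were detected together in 8 wild-type cells, Atp6v0a4 without Atp6v0d2 in 3 and Atp6v0d2 without Atp6v0a4 in 2. Cells with an isoform had more Foxi1 transcript: with Foxi1 at FPKM 100 or more, 5 of 5 Sox9Y440X/+ and 12 of 15 wild-type cells had at least 1 isoform, and with Foxi1 between 1 and 100 these were 0 of 2 and 2 of 7 cells. Over the 22 wild-type cells, Spearman's rho between Foxi1 and the number of isoforms was 0.625, given as a description since the cells share a sample. Foxi1 was also related to the number of genes per cell there (rho −0.506), while the number of isoforms was not closely so (rho 0.0707).

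The isoforms stood beside the widely expressed form of their subunit in different proportions. FPKM is scaled to transcript length, so the mean level of each gene was expressed as a percent of the summed mean of its subunit's genes. Atp6v1c2 made up 91.9% of subunit C in Foxi1-positive Sox9Y440X/+ cells and 95.9% in wild-type ones. Atp6v0d2 made up 80.9% and 78.9% of subunit d. From means of the log values turned back to FPKM, its share was 53.8% and 49.2%. In Foxi1-negative cells Atp6v1c1 and Atp6v0d1 made up 100% of these subunits in both genotypes.

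In subunits a, B and G the widely expressed forms took a larger part. Atp6v0a4 made up 56.4% of subunit a in Foxi1-positive Sox9Y440X/+ cells and 71.4% in wild-type ones, against 0% and 2.17% in Foxi1-negative cells. There Tcirg1, the a3 subunit of lysosomes and osteoclasts, made up 74.4% and 79.5%. Atp6v1b1 made up 37.02% and 38.6% of subunit B in Foxi1-positive cells, so Atp6v1b2 was the larger part by this class mean. That mean includes cells without an acid-secreting isoform. Among the 8 wild-type cells with all 5 isoforms, Atp6v1b1 was above Atp6v1b2 in most, as at 105.14 against 4.82 FPKM. It was below in the others, as at 5.67 against 253.65 FPKM. Atp6v1g3 made up 2.73% of subunit G in Sox9Y440X/+ and 30.2% in wild type, the remainder in wild type being Atp6v1g1. Few cells carry these shares: without the highest cell, the Sox9Y440X/+ share of Atp6v1b1 was 22.2% and that of Atp6v1g3 was 0%. In wild type, 1 Foxi1-positive cell with 1209 genes had Atp6v0a4 at 921.51 FPKM, which was 52.8% of that gene's sum over the class. The highest Sox9Y440X/+ cell held 44.4% of the sum there. The genotypes are therefore not ranked by their Atp6v0a4 share.

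**Figure D2:**
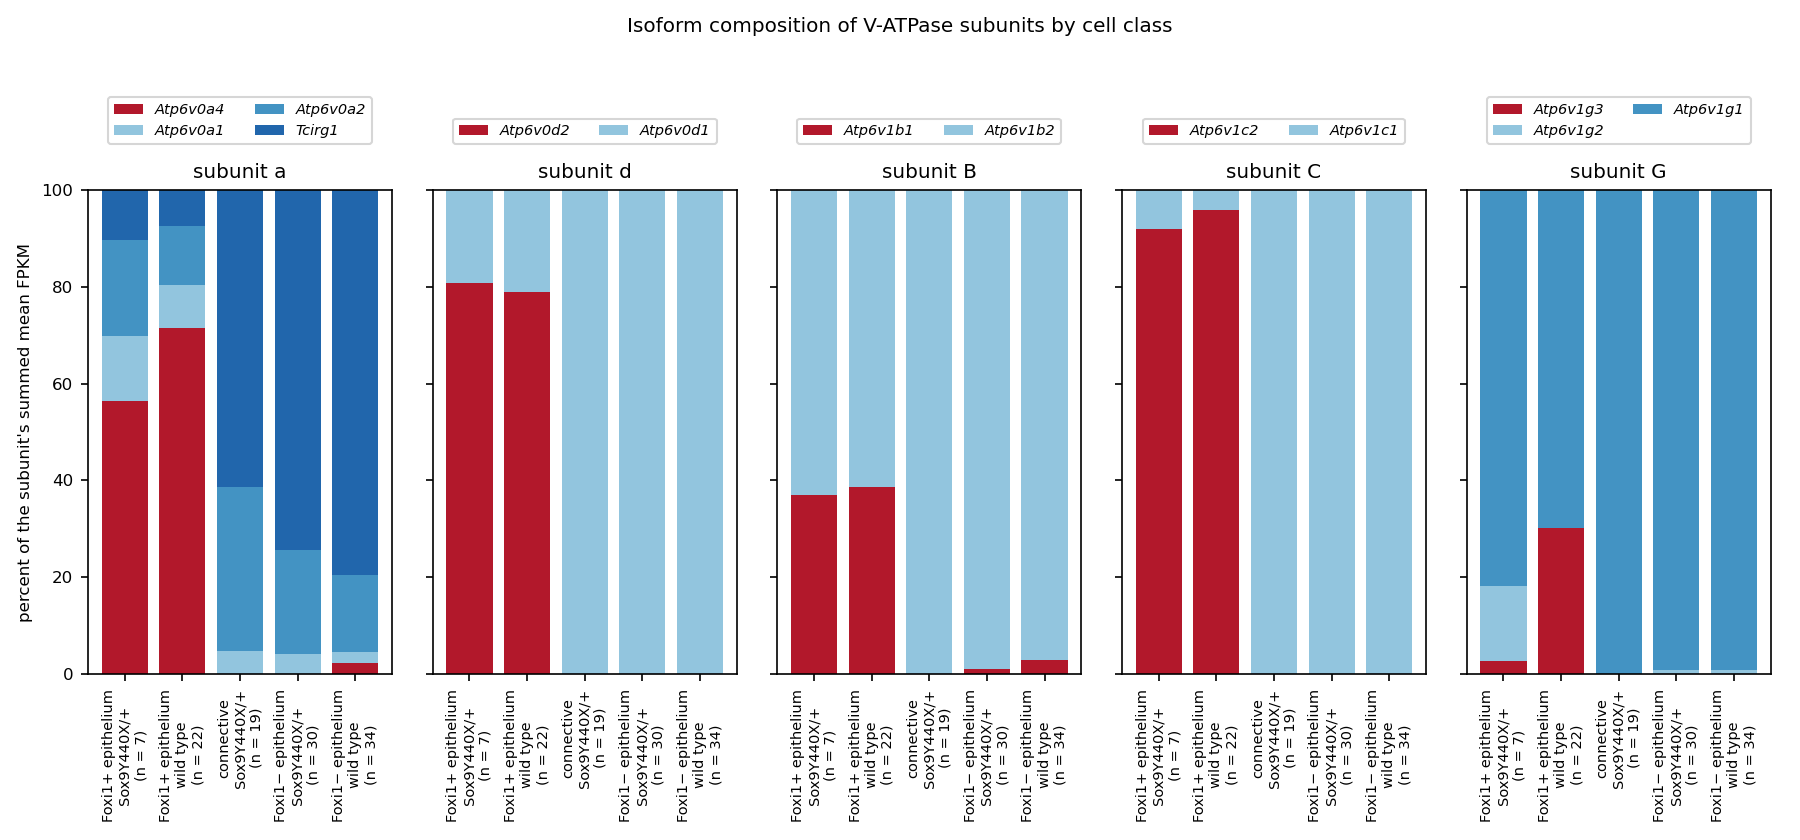
Isoform composition of subunits a, d, B, C and G, as the percent of the subunit's summed mean FPKM, by cell class and genotype. The acid-secreting isoform, in red, makes up over 50% of subunits C, d and a by this mean and a smaller part of B and G in Foxi1-positive cells, and none or under 3% in the other classes.

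Widely expressed subunits were also higher in Foxi1-positive cells. Over all 31 members, 19 were higher and 1 was lower in each genotype, with 28 past the detection filter. Of all genes considered, 26.5% were higher and 10.5% lower in Sox9Y440X/+, and 25.4% and 3.68% in wild type. Of the 15 widely expressed subunits, all of which passed the detection filter, 11 were higher in Sox9Y440X/+ and 10 in wild type, with 9 in common. In each genotype 1 was lower, and it was Tcirg1. The median difference of the 15 was 1.99 in Sox9Y440X/+ and 1.58 in wild type, beside 0.36 and 0.48 for all genes considered.

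The largest difference was in Atp6v0b, the c″ subunit of the proton-carrying ring. It ranged from 119.1 to 1476.4 FPKM (median 590.9) in Foxi1-positive Sox9Y440X/+ cells and from 0 to 1645.9 FPKM (median 721.8) in wild-type ones. In Foxi1-negative cells it ranged from 0 to 524.4 FPKM (median 111.1) in Sox9Y440X/+ and from 0 to 691.3 FPKM (median 0.678) in wild type. The ranges overlapped, but the Foxi1-positive medians lay above the highest Foxi1-negative value in both genotypes. The difference was 4.17 and 4.70.

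Atp6v0c, the c subunit that makes up most of the ring, was the most abundant member in Foxi1-positive cells by mean FPKM. It averaged 1262 FPKM in Foxi1-positive Sox9Y440X/+ cells and 846 FPKM in wild-type ones, against 236 and 247 FPKM in Foxi1-negative cells, and differed by 2.40 and 1.58. Its annotated pseudogene Atp6v0c-ps1 was not detected in any cell. Atp6v0e, the small e subunit of the membrane part, averaged 723 and 438 FPKM in Foxi1-positive cells, against 200.1 and 192 FPKM in Foxi1-negative cells, and differed by 3.48 and 3.16.

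In the ATP-splitting part, Atp6v1a, the catalytic subunit, was detected in 7 of 7 Sox9Y440X/+ and 16 of 22 wild-type Foxi1-positive cells, against 13 of 30 and 13 of 34 Foxi1-negative cells. It was higher by 3.96 and 2.99. Atp6v1b2 (B2), which pairs with it in the head, was higher by 1.48 and 1.93. Its Sox9Y440X/+ value was 0.93 without the highest Foxi1-positive cell, and the ratio of its mean FPKM was 1.68 and 1.53. The central stalk subunit Atp6v1d was higher by 3.51 and 3.01, while Atp6v1f, also of the central stalk, differed by −0.04 and 1.53.

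Among the outer stalk subunits, Atp6v1e1 was higher by 3.61 and 2.49, and Atp6v1g1 differed by −0.06 and 0.78. Atp6v1h, which regulates the splitting of ATP, was higher by 2.38 and 2.85. The widely expressed forms of subunits C and d were higher in Sox9Y440X/+, while their wild-type differences were negative and within 1 log2 unit. Atp6v1c1 differed by 1.99 in Sox9Y440X/+ and −0.52 in wild type, and Atp6v0d1 by 1.84 and −0.39. In cells with 2500 to 5500 genes the values were 2.54 and −1.52 for Atp6v1c1, and 1.57 and 0.19 for Atp6v0d1.

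The a subunits divided. Tcirg1 was detected in 1 of 7 Sox9Y440X/+ and 4 of 22 wild-type Foxi1-positive cells, against 13 of 30 and 15 of 34 Foxi1-negative cells, and was lower by 1 log2 unit or more in both genotypes, at −1.54 and −1.77. Atp6v0a1 was higher by 1.63 and 1.04, from low levels, and its wild-type value was 0.78 without the highest Foxi1-positive cell. It passed the filter through the Foxi1-positive class, with 3 of 7 and 7 of 22 cells against 2 of 30 and 4 of 34. Atp6v0a2, a Golgi form, differed by 0.25 and 0.75.

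**Figure D3:**
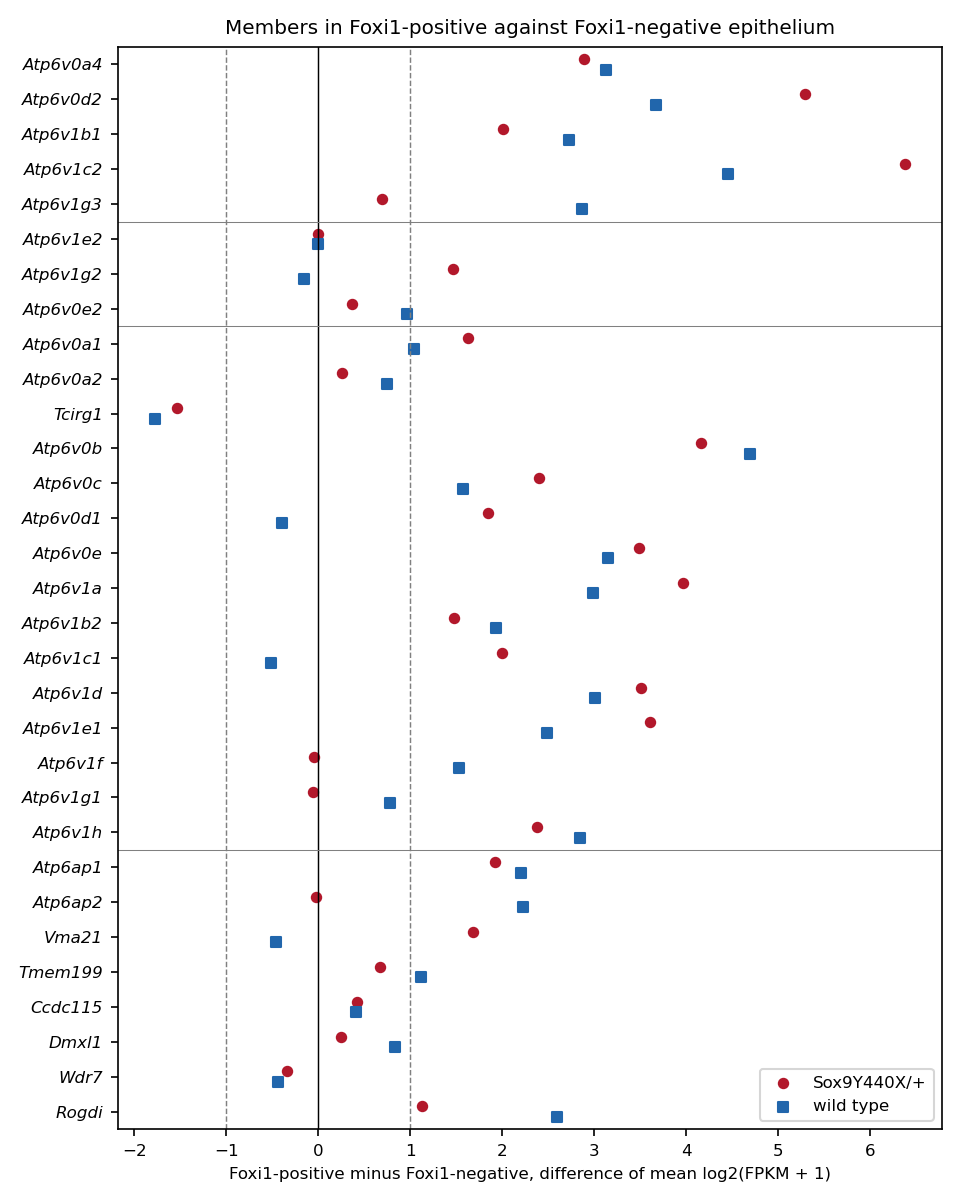
Difference of the mean log2(FPKM + 1), Foxi1-positive minus Foxi1-negative epithelial cells, for the 31 members in Sox9Y440X/+ (circles) and wild type (squares). Dashed lines mark 1 log2 unit and horizontal lines separate acid-secreting, other-tissue, widely expressed and accessory members. Tcirg1 is the 1 member past the line on the lower side in each genotype.

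High levels of the widely expressed subunits were found in the cells that had acid-secreting isoforms. The summed level of the 15 subunits was 3958 to 5800 FPKM (median 4984) in the 5 Foxi1-positive Sox9Y440X/+ cells with an isoform and 867 to 7991 FPKM (median 4587) in the 14 such wild-type cells. In the 2 Sox9Y440X/+ and 8 wild-type Foxi1-positive cells with none it was 1328 to 1945 and 891 to 2224 FPKM. Foxi1-negative cells reached at most 2667 FPKM in Sox9Y440X/+ and 2621 FPKM in wild type, with medians of 1257 and 1349 FPKM. The Foxi1-positive cells without an isoform thus lay inside the Foxi1-negative range.

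The number of genes per cell went the other way in Sox9Y440X/+, with a median of 4249 genes with an isoform and 5130.5 with none, and the same way in wild type, with 4795 and 3897 genes. Its part in the wild-type difference was not tested. Over the 22 wild-type cells, Spearman's rho between the summed acid-secreting and the summed widely expressed subunits was 0.843, as a description.

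**Figure D4:**
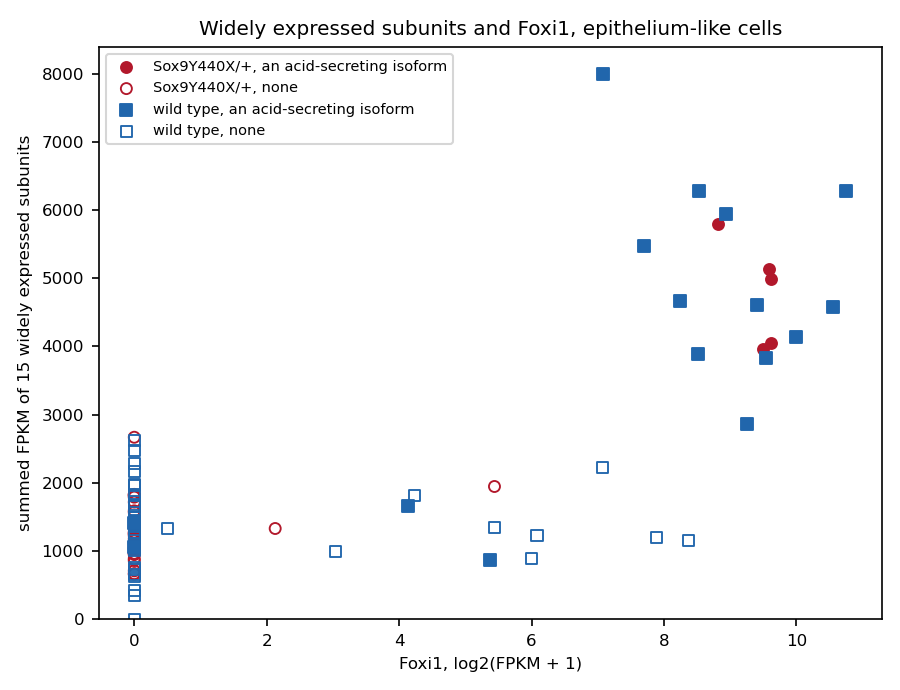
Summed FPKM of the 15 widely expressed subunits against Foxi1, log2(FPKM + 1), in each epithelium-like cell. Filled symbols are cells with at least 1 acid-secreting isoform, circles Sox9Y440X/+ and squares wild type. All cells above the Foxi1-negative maximum of 2667 FPKM are filled and have Foxi1 at FPKM 100 or more.

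The promoter window of Atp6v0b is shown because this gene had the largest difference of any widely expressed subunit, with capitals for the E-box CACGTG, a motif read by the lysosomal regulators TFEB and TFE3 among others.
Atp6v0b, chr4:117887330-117887579, minus strand: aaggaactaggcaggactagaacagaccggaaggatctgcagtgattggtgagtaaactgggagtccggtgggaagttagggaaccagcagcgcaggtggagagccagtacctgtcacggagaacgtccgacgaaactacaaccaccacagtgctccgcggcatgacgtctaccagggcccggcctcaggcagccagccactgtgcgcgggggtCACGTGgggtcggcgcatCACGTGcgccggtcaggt
The window held the E-box at 36 and 18 bases before the start. The motif was in the windows of 4 of the 23 members, Atp6v0b, Atp6v1a, Ccdc115 and Vma21, and in 6.021% of all windows. The 23 members had 29 windows and a member counts with any of them, so the count and the percent are in unlike units.

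Isoforms known from other tissues showed no common pattern. Atp6v1e2, the testis form of subunit E, was listed at 0 in every cell of every class. Atp6v1g2, the neuronal G form, was detected in 2 of 7 Foxi1-positive Sox9Y440X/+ cells, at 139.75 and 19.71 FPKM, in 0 of 22 wild-type ones and in 1 Foxi1-negative cell of each genotype. The cell with 139.75 FPKM had no acid-secreting isoform. Its difference of 1.47 in Sox9Y440X/+ was 0.55 without that cell. The neuronal marker Snap25 was detected in 1 Foxi1-positive Sox9Y440X/+ cell, and its part in this value was not tested.

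Atp6v0e2, the brain-enriched form of subunit e, was an epithelial transcript here. It was detected in 4 of 7 and 11 of 22 Foxi1-positive cells and in 16 of 30 and 11 of 34 Foxi1-negative cells. Its differences of 0.37 in Sox9Y440X/+ and 0.96 in wild type did not reach 1 log2 unit. It made up 4.30% and 7.29% of subunit e in Foxi1-positive cells and 13.2% and 12.7% in Foxi1-negative cells.

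Of the 8 accessory and assembly genes, 3 were higher in Foxi1-positive Sox9Y440X/+ cells and 4 in wild-type ones, with 2 in common, and none was lower, where 26.5% and 25.4% of all genes considered were higher. The median difference of the 8 was 0.54 and 0.98. In each genotype 7 passed the detection filter. In wild type, Rogdi (12 of 22 against 7 of 34 cells) and Tmem199 (8 of 22 against 6 of 34) passed through the Foxi1-positive class. In Sox9Y440X/+, Tmem199, Ccdc115 and Dmxl1 passed on 2 of 7 Foxi1-positive cells each. Atp6ap1 (Ac45), which guides assembly of the membrane part, averaged 203 and 375 FPKM in Foxi1-positive cells, against 92.8 and 168 FPKM in Foxi1-negative cells, and was higher by 1.92 and 2.21. Rogdi, related to a yeast factor that rejoins the parts of the pump, was higher by 1.13 in Sox9Y440X/+ and 2.60 in wild type. The value in Sox9Y440X/+ was 0.24 without the highest Foxi1-positive cell.

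Atp6ap2, the prorenin receptor and a subunit-like partner of the membrane part, was higher by 2.22 in wild type and differed by −0.03 in Sox9Y440X/+. With Foxi1-positive cells limited to Foxi1 at FPKM 100 or more, it was higher by 2.47 in wild type and by 1.89 in Sox9Y440X/+. Vma21, an assembly chaperone of the endoplasmic reticulum, was higher by 1.68 in Sox9Y440X/+ and differed by −0.46 in wild type. Tmem199 and Ccdc115, which act in assembly with it, differed by 0.67 and 1.11 and by 0.42 and 0.41. Dmxl1 and Wdr7, the large partners of Rogdi, were low, with means under 5 FPKM in every class, and Wdr7 was not detected in any Foxi1-positive cell.

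**Figure D5:**
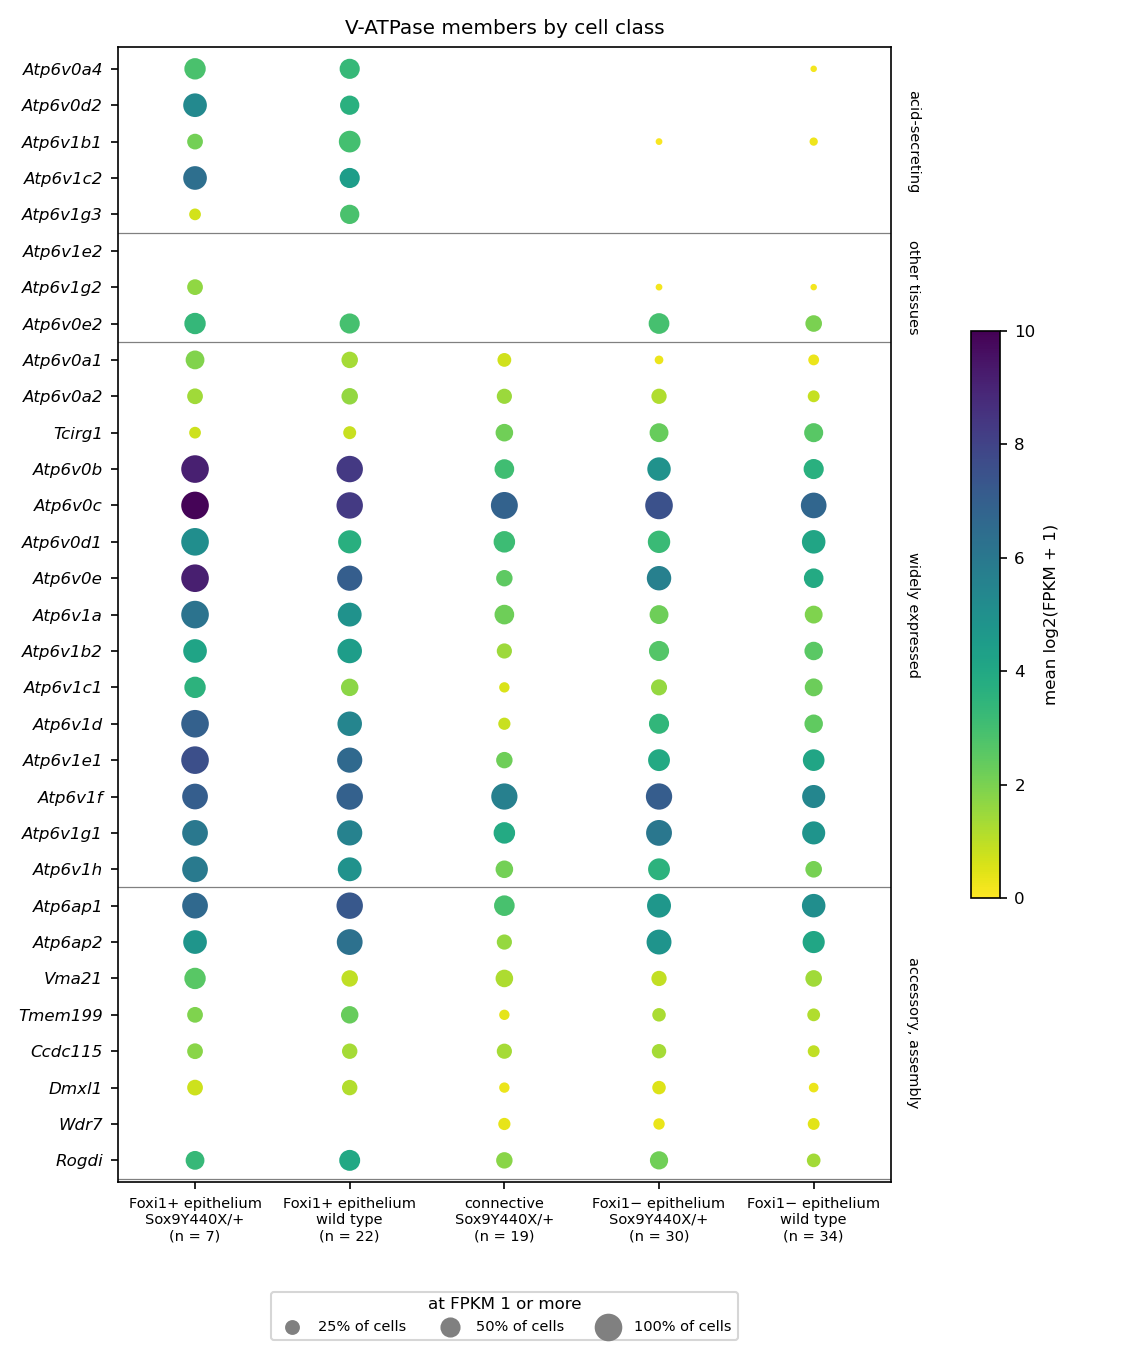
Mean log2(FPKM + 1) as colour and the percent of cells at FPKM 1 or more as dot area, for the 31 members by cell class and genotype. The acid-secreting isoforms lie mainly in the Foxi1-positive columns, at 14.3% to 71.4% of Sox9Y440X/+ and 45.5% to 59.1% of wild-type cells. Atp6v0c and Atp6v1f are found in all columns, and Atp6v1e2 in none. The 1 wild-type connective-like cell is not drawn.

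Between the genotypes, the acid-secreting isoforms of Foxi1-positive cells differed in both directions. Atp6v1c2 was higher by 1.92 and Atp6v0d2 by 1.63 in Sox9Y440X/+, and Atp6v1g3 was lower, at −2.18. Atp6v0a4 and Atp6v1b1 differed by −0.41 and −0.87. Mean FPKM was 483 in Sox9Y440X/+ and 346 in wild type for Atp6v1c2, and 162 and 150.5 for Atp6v0d2. As log2 ratios of mean FPKM these were 0.48 and 0.10, both under 1. In all, 2 of the 5 isoforms were higher and 1 lower, with all 5 past the filter, where 26.1% of all 7622 genes considered were higher and 10.1% lower.

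The share of cells with each isoform had wide intervals that overlapped between genotypes. Atp6v1g3 was detected in 14.3% of Sox9Y440X/+ cells (0.361% to 57.9%) and 45.5% of wild-type cells (24.4% to 67.8%). Atp6v1b1 was detected in 28.6% (3.67% to 71.0%) and 59.1% (36.4% to 79.3%). With Foxi1 at FPKM 100 or more the differences were 2.39 for Atp6v1c2, 2.03 for Atp6v0d2 and −3.24 for Atp6v1g3, over 5 Sox9Y440X/+ and 15 wild-type cells. With each gene's highest Sox9Y440X/+ cell taken out and all wild-type cells kept, Atp6v0a4 and Atp6v1b1 were lower too, at −1.05 and −1.69. By its construction that setting lowers every gene, and the median of all genes was then −0.11, against 0.40.

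The widely expressed subunits were higher in Sox9Y440X/+ Foxi1-positive cells for 7 of 15, with 14 past the filter, and lower for none. They were Atp6v0e (2.11), Atp6v1c1 (1.86), Atp6v0c (1.60), Atp6v1d (1.47), Atp6v0d1 (1.37), Atp6v1a (1.26) and Atp6v1h (1.02). The median of the 15 was 0.97, against 0.40 for all genes considered. This count rests on how cells with 0 are weighed: by the ratio of mean FPKM 1 of the 15 was higher, and Atp6v0d1, Atp6v1a and Atp6v1d turned to the lower side. The wild-type class included cells with as few as 1209 genes, while Sox9Y440X/+ cells had at least 4134. With 2500 to 5500 genes, in 6 Sox9Y440X/+ and 12 wild-type cells, Atp6v0d1 (0.40) and Atp6v1h (0.75) fell below 1. Atp6v1c1 (3.21), Atp6v1a (2.01), Atp6v0e (1.82), Atp6v0c (1.76) and Atp6v1d (1.72) stayed above 1, and Atp6v0b (1.35) rose above it. The median of all genes was then 0.18. The part of depth in the result was not tested.

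Among accessory genes in Foxi1-positive cells, Vma21 was higher in Sox9Y440X/+ by 1.62 and Atp6ap2 was lower, at −1.54. Atp6ap2 was listed at 0 in the 2 Sox9Y440X/+ cells with Foxi1 under FPKM 100. It was detected in 5 of 5 Sox9Y440X/+ and 13 of 15 wild-type cells with Foxi1 above that level, and there the genotypes differed by 0.00. Atp6ap1, Atp6ap2 and Vma21 lie on the X chromosome, and Xist, the marker of the inactive X in females, was found in 10 of 22 Foxi1-positive wild-type cells and in no Sox9Y440X/+ cell. Without those wild-type cells the differences were −1.86 for Atp6ap2, 1.76 for Vma21 and −0.99 for Atp6ap1, which had been −0.68.

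In Foxi1-negative cells the share of pump genes that differed between genotypes was near that of all genes. Over all 31 members 19 passed the filter and 5 were higher in Sox9Y440X/+, and none of the acid-secreting isoforms passed. Of 15 widely expressed subunits, 14 passed, 5 were higher in Sox9Y440X/+ and none was lower, where 21.5% of all 5821 genes considered were higher and 2.58% lower. They were Atp6v0e (1.78), Atp6v1f (1.67), Atp6v1h (1.49), Atp6v0b (1.30) and Atp6v1g1 (1.21).

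None of these 5 was higher by the ratio of mean FPKM. Sox9Y440X/+ cells of this class had a median of 4380 genes and wild-type cells 3046. All genes considered had a median difference of 0.49. The median of the 15 subunits was 0.31, with Atp6v0a1 (−0.02), which did not pass the filter, among them. The sets are thus unlike, and no order is read from these 2 medians. In cells with 2500 to 5500 genes Atp6v1f (1.83) and Atp6v1h (1.70) were the 2 that stayed above 1. Xist was found in 24 of the 34 wild-type cells, and without them Atp6v0e (1.90) was the 1 of the 5 that stayed above 1. With the 10 wild-type cells left, 5 members lay past 1 on the lower side: Atp6v1e1 (−1.79), Vma21 (−1.34), Atp6ap2 (−1.28), Atp6v1c1 (−1.23) and Tcirg1 (−1.01). Rogdi (2.16), Ccdc115 (1.36) and Atp6v0e2 (1.19) lay past 1 on the higher side beside Atp6v0e, all before the detection filter. The median of all genes in this setting was 0.29. The share of all genes past 1 is not at hand for it, so these counts are not read as a result about the members.

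Connective-like cells had lower levels of many pump subunits than Foxi1-negative epithelial cells, and no acid-secreting isoform. In Sox9Y440X/+, the genotype with enough such cells, 9 of 15 widely expressed subunits were lower in connective-like than in Foxi1-negative cells and none was higher, with 14 past the filter. Of all 6971 genes considered, 22.7% were lower and 14.8% higher. The median difference of the 15 was −1.24, against −0.16 for all genes considered. With a pseudocount of 10, or by the ratio of mean FPKM, 5 of the 15 were lower. Lysosome genes were lower as well, 12 of 22 with 16 past the filter and a median of −1.12.

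The largest of these differences was in Atp6v0e, detected in 6 of 19 connective-like and 23 of 30 Foxi1-negative cells, at −3.20. For Atp6v1d, detected in 3 of 19 connective-like and 15 of 30 Foxi1-negative cells, the difference was −2.57. Atp6v1g1 differed by −2.12, Atp6v0b by −1.89, Atp6v1e1 by −1.79, Atp6v1h by −1.43, Atp6v1f by −1.40, Atp6v1b2 by −1.24 and Atp6v1c1 by −1.05. The remaining 6 widely expressed subunits lay within 1 log2 unit. Among them were Atp6v0c (−0.60), detected in 18 of 19 and 30 of 30 cells, and the 3 widely expressed a subunits (0.45 for Atp6v0a1, 0.30 for Atp6v0a2 and −0.14 for Tcirg1).

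Of the other members, Atp6ap2 was detected in 5 of 19 connective-like and 24 of 30 Foxi1-negative cells and was lower, at −3.24, as was Atp6ap1, at −1.78. Atp6v0e2 was listed at 0 in all 19 connective-like cells, against 16 of 30 Foxi1-negative cells with detection (−2.97). The 1 wild-type connective-like cell had 6 members detected, all of them widely expressed, and no acid-secreting isoform.

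Genes that work with the pump differed by list. Of 18 acid and base transporters and partners known from ionocytes, 7 were higher in Foxi1-positive Sox9Y440X/+ cells and 9 in wild-type ones. Of these 18, 8 and 10 were past the filter and none was lower. Of all genes considered, 26.5% were higher and 10.5% lower in Sox9Y440X/+, and 25.4% and 3.68% in wild type. A gene near 0 in Foxi1-negative cells passes the filter through the Foxi1-positive class and can enter these counts only as higher. Slc26a4 (pendrin, an anion exchanger) was higher by 2.41 and 4.46, Car2 (a carbonic anhydrase) by 2.19 and 4.21, and Insrr (an alkali-sensing receptor) by 4.21 and 3.38. Slc26a4 was such a gene, detected in 2 of 7 and 11 of 22 Foxi1-positive against 0 of 30 and 1 of 34 Foxi1-negative cells. Of 10 V-ATPase interactors outside the members, 4 and 3 were higher and none lower, with 7 past the filter in each genotype, beside the same shares of all genes. Tldc2 was higher by 2.16 and 2.07, Rnasek by 2.004 and 1.60, and Ncoa7 by 0.39 and 1.35. Tldc2 also passed through the Foxi1-positive class, detected in 2 of 7 and 6 of 22 against 0 of 30 and 0 of 34 cells.

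Lysosome genes did not share the pattern. Of 22, 4 were higher and 3 lower in Foxi1-positive Sox9Y440X/+ cells and 5 higher and 2 lower in wild-type ones, with 18 and 19 past the filter. Of all genes considered, 26.5% were higher and 10.5% lower in Sox9Y440X/+, and 25.4% and 3.68% in wild type. The counts higher were thus near the share of all genes. The median differences of the 22, including those not past the filter, were −0.07 and 0.21, beside 0.36 and 0.48 for all genes considered. These sets are unlike, so no order is read from their medians. The lysosomal regulator Tfeb differed by 0.30 and 1.41, and the peptidase Tpp1 by 0.49 and 1.30. Progranulin, Grn, was lower in both genotypes, at −2.57 and −1.01.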

How the data were processed

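Smart-seq2 libraries of 120 single cells were deposited by the authors as FPKM values in 1 table of 48555 entries. Tools listed in the submitters' processing notes, with no role given, are Cufflinks, HTSeq, HISAT2 and SAMtools 0.1.18, and the build is mm10. FPKM holds no counts, so the read depth of each cell is unknown, and an exact 0 can be a failed estimate. Entries with 1 symbol were summed. Cells were epithelium-like or connective-like with at least 3 markers of that list and more than of the other. Intervals on shares of cells are at the 95% level (Clopper-Pearson). Cells are not replicates, so nothing was tested. The method was tested on simulated data that held no zeros and no differences in depth between cells, unlike the cells here. Doublets were not treated with a caller. The members, lists, and rules were chosen with earlier results of these data known. Named genes are all 31 members and, of other lists, the 3 with the largest difference in each direction past 1 log2 unit in wild-type Foxi1-positive against Foxi1-negative cells; 2 genes that this rule names are not reported here. All 31 gene IDs matched GENCODE M21, of the same assembly as mm10. There, 2 members share exon sequence with another gene on the same strand and 10 on the opposite strand, so their reads may not be told apart. Python 3.11.15, pandas 2.3.3 and scipy 1.17.1 were used.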

Additional observations from a re-analysis of the deposited data

Results flagged for a closer look

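A Sox9Y440X/+ cell with 158 genes per its label was left out of every comparison, since it fell below 1000 genes. It held Atp6v0d2 at 736.74 FPKM, above the highest cell compared, at 676.8 FPKM. It also held Atp6v1f at 1766 FPKM, above the highest cell compared, at 910.28 FPKM. No other member was detected in that cell, and it was put in no cell class.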

How the results depend on the processing

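No paired analysis was possible because the labels number cells and not replicates. Of 107 recomputed counts of members, 91 stayed within 1.5 times the reported count, as did all 20 recomputed shares of cells with an isoform and 31 of 40 isoform shares. Of 858 recomputed differences of single members, made from the 70 counted as higher or lower, 672 stayed within that range, 182 moved further and 4 turned. Differences not so counted are outside this tally, and some of them turned as well. For example, Atp6v0d1 in Foxi1-positive against Foxi1-negative wild-type cells went from −0.39 to 0.19 with 2500 to 5500 genes. The counts for Foxi1-positive against Foxi1-negative cells were among those that stayed. Settings relative to the median of all genes and without wild-type cells holding Xist were chosen after seeing the data. In every case below the cause was not tested.

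Between genotypes in Foxi1-positive cells, acid-secreting isoforms lower in Sox9Y440X/+ numbered 1, and 2 with a pseudocount of 0.1, by the ratio of mean FPKM, with 2500 to 5500 genes, relative to the median of all genes and without Xist cells, and 3 with each gene's highest Sox9Y440X/+ cell taken out and all wild-type cells kept, which by construction lowers every gene. Widely expressed subunits higher in Sox9Y440X/+ numbered 7, and 3 with a pseudocount of 10, 1 by the ratio of mean FPKM and 4 relative to the median. In Foxi1-negative cells they numbered 5, and 0 with a pseudocount of 10, 0 by the ratio, 2 with 2500 to 5500 genes, 3 relative to the median and 1 without Xist cells. Those lower in connective-like cells numbered 9, and 5 both with a pseudocount of 10 and by the ratio.

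By the ratio of mean FPKM the Foxi1-positive difference between genotypes was −0.077 for Atp6v0d1, −0.379 for Atp6v1a and −0.084 for Atp6v1d. For Atp6ap2 it was 0.00067 with Foxi1 at 100 or more. From means of the log values turned back to FPKM, the share of Atp6v0d2 was 53.8% in Sox9Y440X/+ and 49.2% in wild type, of Atp6v1b1 16.6% and 24.8%, and of Atp6v1g3 0.95% and 11.7%. In Sox9Y440X/+, Atp6v1b1 was at 22.2% and Atp6v1g3 at 0% without the highest cell, and Atp6v1g3 at 4.28% with Foxi1 at 100 or more.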
